A study of Homo sapiens with 12 samples.

Results

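The complement receptors and regulators considered here were 4 genes, *CD55*, *CR2*, *CD46* and *CD59*, taken by symbol from a count table of 14438 genes, and all 4 passed the filter that left 14263 genes to test. The samples were 12 libraries of polyadenylated RNA from HEK293T cells, a human embryonic kidney line. Each of 4 lines gave 3 libraries and had received by lentiviral infection either EZH2 WT or one of the mutants EZH2 A677G, EZH2 Y641F and, with 2 changes in 1 protein, EZH2 H689A/F667I. The endogenous EZH2 gene was kept in every line, the cells received no other treatment, and the study describes blasticidin selection intended to give monoclonal populations. Each form of EZH2 was therefore seen in 1 line, and an effect of the mutation and a difference between lines cannot be told apart. The lines are named WT, Y641F, A677G and H689A/F667I, of which Y641F and A677G carry gain-of-function (GOF) mutants and H689A/F667I a loss-of-function (LOF) mutant.

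Complement is a cascade of plasma proteins that coats cells with fragments of C3 and ends in a membrane-attack pore. Human cells carry regulators on their surface that stop it: CD55, also called decay-accelerating factor, takes apart the C3 and C5 convertases, CD46 is a cofactor for the cleavage of C3b and C4b, and CD59 blocks the assembly of the pore. CR2 (CD21) is a receptor for C3 fragments, best known from B cells and follicular dendritic cells, where it lowers the threshold for B cell activation and serves as the entry receptor of Epstein-Barr virus. EZH2 is the catalytic subunit of PRC2, which methylates lysine 27 of histone H3, a mark of repressed promoters.

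*CD55* (ENSG00000196352.18), *CR2* (ENSG00000117322.19) and *CD46* (ENSG00000117335.21) lie in this order on the plus strand of chromosome 1 in GRCh38, within the cluster of regulators of complement activation. Their annotated spans are chr1:207321519-207386804, chr1:207453024-207489895 and chr1:207752037-207795513, and the *CR2* and *CD46* starts are 131.5 and 430.5 kb downstream of that of *CD55*. *CD59* (ENSG00000085063.18) stands apart from them on the minus strand of chromosome 11, chr11:33703010-33736479. A gene model of the same strand (ENSG00000284969.1) overlaps *CD59* and a noncoding RNA of the opposite strand, *MIR29B2CHG*, and a pseudogene of the same strand, *CDCA4P4*, overlap *CD46*. None of them was counted as a row of its own, and how the reads of such overlaps were assigned is not given in the sources used here.

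The promoters of the 3 clustered genes are shown because *CD55* and *CR2* were lower than in the LOF line in the GOF lines while *CD46*, in the same cluster, was not called. Each is the 250 bases before the RefSeq start on the plus strand of GRCh38.p14, with CG dinucleotides, where DNA can be methylated, in capitals. The windows are chr1:207321428-207321677, chr1:207454078-207454327 and chr1:207751788-207752037. For *CD55* and *CR2* the RefSeq starts lie downstream of the annotated gene starts given above. The *CR2* window therefore lies wholly inside the annotated span, and the *CD55* window runs across the annotated start.
CD55: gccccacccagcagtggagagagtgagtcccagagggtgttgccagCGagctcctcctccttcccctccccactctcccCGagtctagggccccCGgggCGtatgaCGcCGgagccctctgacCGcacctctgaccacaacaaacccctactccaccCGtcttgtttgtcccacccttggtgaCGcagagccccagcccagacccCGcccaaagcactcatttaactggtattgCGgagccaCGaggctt
CR2: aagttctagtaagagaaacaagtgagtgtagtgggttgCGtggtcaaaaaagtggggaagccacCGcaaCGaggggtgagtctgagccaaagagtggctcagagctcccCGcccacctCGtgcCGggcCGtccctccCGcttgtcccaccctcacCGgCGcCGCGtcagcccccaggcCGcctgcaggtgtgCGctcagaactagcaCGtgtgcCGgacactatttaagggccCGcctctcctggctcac
CD46: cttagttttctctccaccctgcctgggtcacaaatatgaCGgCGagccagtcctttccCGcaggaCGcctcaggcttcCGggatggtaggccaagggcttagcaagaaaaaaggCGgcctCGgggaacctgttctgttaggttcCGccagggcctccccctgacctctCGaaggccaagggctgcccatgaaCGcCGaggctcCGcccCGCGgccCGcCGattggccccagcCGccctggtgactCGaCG
With the 50 bases after the start included, the *CD55* window held 19 CG dinucleotides, that of *CR2* 21 and that of *CD46* 25. The median over 35116 RefSeq windows of the same 300 bases was 14, and 42.9%, 39.5% and 32.0% of all windows held at least as many as *CD55*, *CR2* and *CD46*. GC content was 65.0% for *CD55*, 64.0% for *CR2* and 67.0% for *CD46*, against a median of 58.7%. The hexamer CCGCCC, searched on both strands as GGGCGG or CCGCCC, occurred once in the *CD55* and *CR2* windows and 3 times in that of *CD46*, and 45.0% of all windows held it. The upstream pair of *CD59* windows held 18 and 22 CG dinucleotides, and the other pair, at a start inside the gene, held 1 each. The windows of *CD55* and *CR2* thus held CG counts between that of the lower upstream *CD59* window and that of *CD46*.

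Counts per library summed to between 32137700 and 44562413, and the common biological coefficient of variation was 0.0471. Replicate 1 of Y641F stood apart from the other libraries of its line on the first 2 principal components, at 5.60 and -19.2 against 17.7 and 2.25 for replicate 2 and 17.1 and -0.785 for replicate 3. *EZH2*, counted over the introduced and endogenous transcript together, was at 158 ± 4.32 counts per 1000000 (CPM) in WT (SD, n = 3) and at 218 ± 9.61, 173 ± 8.57 and 208 ± 2.03 in Y641F, A677G and H689A/F667I. Of 8 markers set for the HEK293T lines (vimentin, neurofilaments and embryonic kidney factors), 7 were tested, and their summed level was 670 to 694 CPM in WT, 536 to 575 in Y641F, 513 to 544 in A677G and 611 to 623 in H689A/F667I. The lower sums in the GOF lines came beside the changes described next, and their part in them was not tested. Of the follicular dendritic, myeloid, endothelial and erythroid markers 0 were tested.

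**Figure D1:**
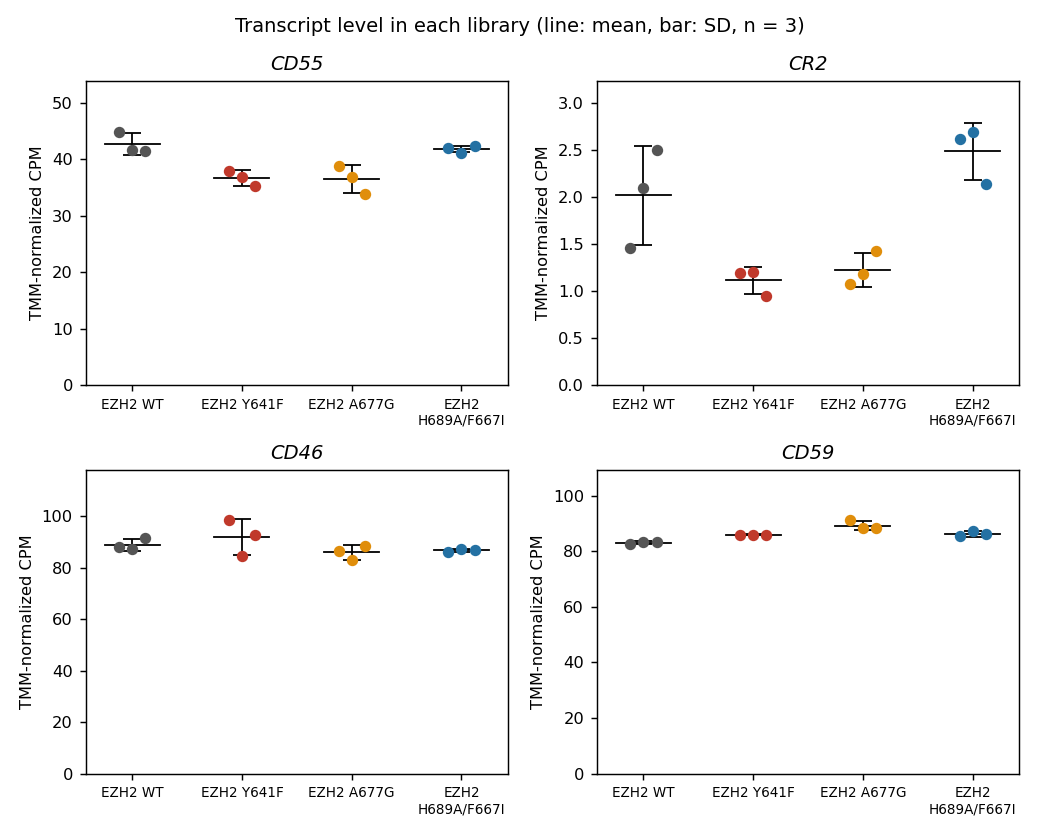
TMM-normalized CPM of the 4 genes (y axis, from 0) in the 3 libraries of each EZH2 line (x axis), with points for libraries, lines for means and bars for SD. The GOF libraries of *CD55* and *CR2* lay below all those of WT and H689A/F667I, the difference of A677G from WT at *CR2* being uncalled, while *CD46* and *CD59* stayed between 82.5 and 98.3 CPM.

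*CD55* was lower than in WT in both GOF lines, by 14.1% and 14.4%, and *CR2* was lower by 44.7% in Y641F. In A677G *CR2* differed by -39.3%, which did not pass the test, and at *CD46* and *CD59* no change was called in any line. In bulk RNA, fewer cells with a transcript and less transcript per cell cannot be told apart. By edgeR's quasi-likelihood test, each mutant line was set against WT, the GOF lines against each other and their mean against the LOF line, and a gene was called at a Benjamini-Hochberg adjusted p under 0.05 over all genes tested. In Y641F 2 of the 4 genes were called lower, where 5.59% of all genes were called lower and 2.09% higher. In A677G 1 of 4 was called lower, beside 6.48% of all genes called lower and 2.07% higher. The median log2 fold change of the 4 was -0.09 in Y641F and -0.14 in A677G, against 0.00251 and 0.00454 over all genes. The study lists *CD55* and *CR2* among its EZH2 targets. It chose these as lowered in both GOF lines of these libraries, together with chromatin evidence. That evidence was lower accessibility by ATAC-Seq and more of the histone mark that EZH2 sets by CUT&Tag, neither of which was used here. The direction of *CD55* and *CR2* in these libraries is therefore not independent evidence.

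*CD55*, whose product shields cells at the convertase step, had 44.8, 41.6 and 41.5 CPM in the WT libraries. The Y641F libraries had 38.0, 36.8 and 35.2 CPM and those of A677G 38.7, 36.8 and 33.8. All 6 GOF libraries lay below all 3 of WT and below the LOF libraries, which had 41.9, 41.2 and 42.3 CPM. The share of all genes whose libraries separate in this way is not given, here, at the other genes, in their ratios or in the figures. The mean level of *CD55* was 42.6 ± 1.91 CPM in WT, 36.6 ± 1.41 in Y641F, 36.5 ± 2.48 in A677G and 41.8 ± 0.568 in H689A/F667I (SD, n = 3 each). Against WT, *CD55* fell by 14.1% in Y641F, a log2 fold change of -0.22 with a 95% interval of -0.33 to -0.11 (edgeR adjusted p = 0.00946). In A677G it fell by 14.4%, with an interval of -0.34 to -0.11 (edgeR adjusted p = 0.00665). Without replicate 1 of Y641F, the library that stood apart, *CD55* was at -0.25 in Y641F (edgeR adjusted p = 0.00555). The calls were lost without some other libraries. Without replicate 1 of WT the log2 fold changes of *CD55* were -0.18 in Y641F (edgeR adjusted p = 0.0908) and -0.19 in A677G (edgeR adjusted p = 0.0683). Without replicate 3 of the mutant, *CD55* was at -0.19 in Y641F (edgeR adjusted p = 0.0607) and at -0.18 in A677G (edgeR adjusted p = 0.0769).

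At *CD55* no difference of the LOF line from WT was called, with a log2 difference of -0.03 and an interval of -0.14 to 0.08 (edgeR adjusted p = 0.927). The GOF lines were not separated from each other either, at 0.01 with an interval of -0.11 to 0.12 (edgeR adjusted p = 0.989). In the comparison with the LOF line, the mean of the GOF lines was lower by 12.5% at *CD55*. No WT mean enters this comparison, but the WT libraries enter the estimate of spread behind its interval and p. The log2 difference was -0.19 with an interval of -0.29 to -0.09 (edgeR adjusted p = 0.00515). That difference was called in all 12 fits that left out a library and in all 13 other settings, with values from -0.21 to -0.17. In this comparison 2 of the 4 genes, *CD55* and *CR2*, were called lower, beside 8.75% of all genes called lower and 3.81% higher.

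*CR2*, the C3 fragment receptor, was near the lower end of what the libraries could measure, with 40 to 106 counts per library, for which counting alone gives an error of between 9.71% and 15.8%. WT libraries had 54, 81 and 83 counts, or 1.46, 2.10 and 2.50 CPM. Y641F libraries had 1.19, 1.21 and 0.946 CPM and A677G libraries 1.08, 1.18 and 1.43. The highest GOF library of *CR2* was just under the lowest of WT, replicate 1, so the groups did not overlap but nearly touched. In the LOF line the values were 2.62, 2.70 and 2.14 CPM, which overlapped WT and lay clear above all 6 GOF libraries.

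On the mean scale *CR2* had 2.02 ± 0.525 CPM in WT, 1.11 ± 0.146 in Y641F, 1.23 ± 0.179 in A677G and 2.49 ± 0.303 in H689A/F667I (SD, n = 3 each). In Y641F *CR2* fell by 44.7% from WT, a log2 fold change of -0.85 with an interval of -1.35 to -0.36 (edgeR adjusted p = 0.0225). In A677G the log2 difference was -0.72 with an interval of -1.21 to -0.23, which was not called (edgeR adjusted p = 0.0583). The pair of GOF lines was not separated at *CR2*, at -0.13 with an interval of -0.65 to 0.38 (edgeR adjusted p = 0.952). The largest difference was between the GOF and LOF lines: the mean of Y641F and A677G was 0.468 times the level of H689A/F667I, with an interval of 0.353 to 0.620 (edgeR adjusted p = 1.29e-04), and it was called in all 12 fits that left out a library and in all 13 other settings. The LOF line itself was at 1.24 times WT, with an interval of 0.899 to 1.71 (edgeR adjusted p = 0.779).

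Single libraries and the choice of test decided the *CR2* call against WT. Without replicate 1 of Y641F, which stood apart, *CR2* was at -0.91 in that line (edgeR adjusted p = 0.0297). In Y641F the call was lost without replicate 2 or 3 of WT (edgeR adjusted p = 0.0867 and 0.146) and without replicate 3 of Y641F (edgeR adjusted p = 0.108). In A677G it was gained without replicate 1 of WT (log2 fold change -0.91, edgeR adjusted p = 0.0246) and without replicate 1 of Y641F (-0.72, edgeR adjusted p = 0.0463). The ordering of the 4 lines at *CR2* was H689A/F667I, WT, A677G and Y641F from high to low, and 0 of the 3 steps between neighbours in this order passed the test, with edgeR adjusted p of 0.779, 0.0583 and 0.952. By unadjusted p under 0.05, only the step from WT to A677G passed.

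**Figure D2:**
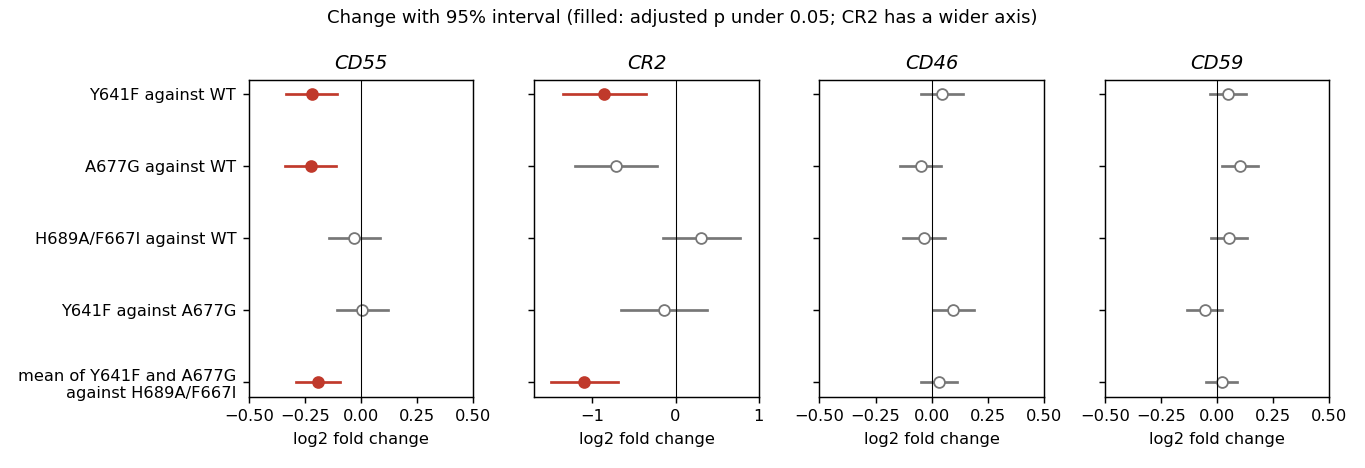
Log2 fold changes (x axis, wider for *CR2*) of the 4 genes in the 5 comparisons (y axis), with 95% intervals as bars and filled red points where the adjusted p was under 0.05. Intervals of *CD55* and *CR2* lay below 0 in both GOF lines, and those of *CD46* stayed between -0.14 and 0.19 in every comparison.

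*CD46*, the cofactor for C3b and C4b cleavage, had 87.9, 87.2 and 91.6 CPM in WT and 86.2, 87.4 and 86.6 in H689A/F667I. A677G had 86.4, 82.8 and 88.3 CPM and overlapped both. Y641F was the most spread, with 98.3, 84.5 and 92.5 CPM, where the highest value was replicate 1, the library that stood apart. The log2 difference of *CD46* from WT was 0.05 in Y641F (interval -0.05 to 0.14), -0.05 in A677G (-0.14 to 0.04) and -0.04 in H689A/F667I (-0.13 to 0.06). In fold terms, these intervals ran from 0.906 to 1.10. Without that library the Y641F value was -0.01, and over all fits that left a library out it ran up to 0.10. The intervals of *CD46* against WT did not reach as low as the estimate for *CD55* in either GOF line, although both genes sit in the same cluster.

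*CD59*, the inhibitor of the pore, had levels of 82.5, 83.4 and 83.3 CPM in WT, 85.9, 85.7 and 86.0 in Y641F, 91.1, 88.4 and 88.2 in A677G and 85.3, 87.4 and 86.1 in H689A/F667I. Every mutant library was above every WT library, and those of A677G were above all others. The steps were small: the log2 difference from WT was 0.10 in A677G (interval 0.02 to 0.18), 0.05 in Y641F (-0.03 to 0.13) and 0.05 in H689A/F667I (-0.03 to 0.14). None of them was called, with edgeR adjusted p of 0.110, 0.575 and 0.779. In A677G the unadjusted p at *CD59* was 0.0136, and the difference was called by limma voom (adjusted p = 0.0450) and after removal of each library's trend with GC content (0.13, edgeR adjusted p = 0.0224).

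Against WT, 0 of the 4 genes were called in H689A/F667I by edgeR's quasi-likelihood test, beside 0.301% of all genes, and 0 had an unadjusted p under 0.05. Between Y641F and A677G the count was again 0, beside 0.0841% of all genes, with 1 gene, *CD46*, at an unadjusted p of 0.0408. Limma voom and edgeR's exact test also called 0 of the 4 in both comparisons, as did DESeq2, which gave no adjusted p for *CR2* between Y641F and A677G.

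**Figure D3:**
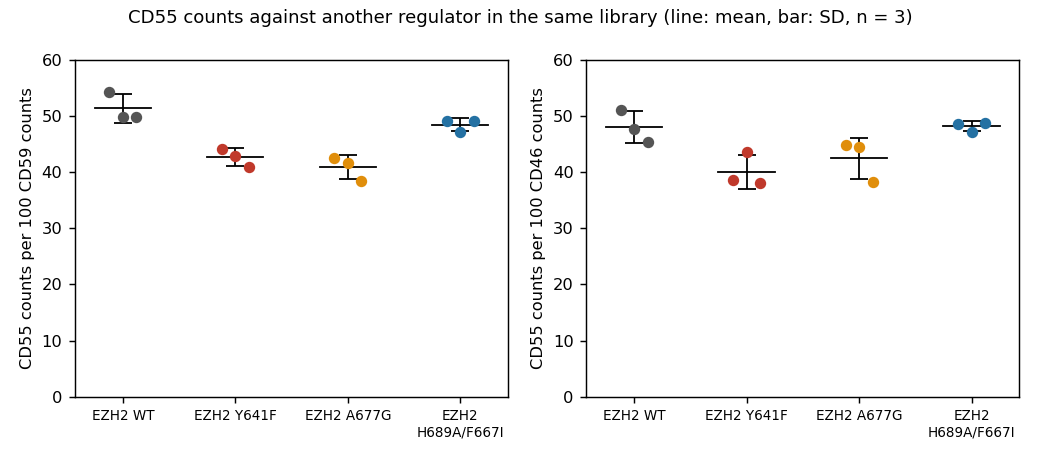
Counts of *CD55* for every 100 counts of *CD59* (left) or of *CD46* (right) in the same library (y axis, from 0), by EZH2 line (x axis), with points for libraries, lines for means and bars for SD. Relative to *CD59*, the GOF libraries sat between 38.4 and 44.2, all below the 47.1 to 54.3 of the WT and LOF libraries.

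Within a library, the balance of the surface regulators needs no scaling between libraries. For every 100 counts of *CD59* there were 51.3 ± 2.57 counts of *CD55* in WT and 48.4 ± 1.15 in H689A/F667I (SD, n = 3 each). In Y641F and A677G these were 42.7 ± 1.66 and 40.9 ± 2.17. Against *CD46* the corresponding values were 48.0 ± 2.86, 48.2 ± 0.929, 40.0 ± 3.02 and 42.5 ± 3.64. On either base *CD55* counts were fewest in the GOF libraries, with no overlap with the other 6. Against *CD46* the groups nearly touched, at 44.8 in A677G replicate 1 and 45.3 in WT replicate 3. Against *CD59* the ratio also carries the higher *CD59* level of the mutant libraries, which lowers it. These ratios are given as a description, without a test.

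Between genes, levels were compared as CPM per kilobase of gene model, averaged over the 12 libraries. With the union of exons as length, *CD59* was at 8.16 CPM per kb, *CD46* at 5.70, *CD55* at 3.84 and *CR2* at 0.340, against a median of 4.59 over the genes tested. *CR2* was at the 11.0th percentile of all genes and *CD55*, *CD46* and *CD59* at the 45.9th, 55.6th and 64.5th. The order of the 3 surface regulators rested on the length used. By the longest transcript, WT had 11.3 CPM per kb of *CD55*, 11.4 of *CD46*, 10.8 of *CD59* and 0.488 of *CR2*, so that the 3 regulators lay close together, and *CR2* was far below them on both scales.

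Of 58 further complement genes 19 were in the count table and 17 were tested. The most expressed were *C1QBP*, a mitochondrial and surface protein that binds C1q, at 586 ± 21.4 CPM in WT (SD, n = 3), the collectin *COLEC12* at 33.5 ± 1.73 and the protein S gene *PROS1*, whose product circulates bound to C4b-binding protein, at 17.3 ± 1.03. In each GOF line 1 of the 17 was called lower and 0 higher, beside 5.59% and 6.48% of all genes called lower. By unadjusted p under 0.05, 3 were lower and 1 higher in Y641F and 2 lower and 0 higher in A677G. The exact test called 2 lower in A677G and 1 in Y641F, DESeq2 and limma voom called 1 lower in each, and all of them called 0 higher. The called gene was *COLEC12*, a scavenger receptor with a collectin domain, which had 24.5 ± 2.92 CPM in Y641F and 26.0 ± 0.242 in A677G. Its log2 fold change was -0.45 in Y641F (standard error 0.0693, edgeR adjusted p = 1.95e-05) and -0.36 in A677G (standard error 0.0691, edgeR adjusted p = 3.12e-04).

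Over these 17 genes the median log2 fold change was -0.08 in Y641F, -0.24 in A677G and 0.02 in H689A/F667I, where the medians over all genes were within 0.005 of 0. The lowest values were of genes with few counts, such as *SERPING1* at -0.64 in Y641F (6 to 26 counts per library) and *CFHR3* at -0.72 in A677G (10 to 38 counts), one of a family of closely similar genes whose reads are hard to separate, and neither was called. *CLU*, whose product clusterin inhibits the pore in plasma as CD59 does on cells, had 14.5 ± 1.08 CPM in WT, 12.1 ± 1.47 in Y641F, 12.1 ± 1.33 in A677G and 14.9 ± 0.900 in H689A/F667I (SD, n = 3 each). It was called between the GOF and LOF lines, at -0.30 (standard error 0.0827, edgeR adjusted p = 0.0111), and not between either GOF line and WT. *COLEC12* was the other of the 2 complement genes called in that comparison, at -0.35 (standard error 0.0596, edgeR adjusted p = 3.71e-05). These 2 of 17 called lower stood beside 8.75% of all genes called lower and 3.81% higher. In the LOF line 0 of the 17 were called against WT by edgeR, DESeq2, limma voom or the exact test, and 0 had an unadjusted p under 0.05.

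CD55 and CD59 are tied to the membrane by a glycosylphosphatidylinositol (GPI) anchor, which CD46 and CR2 lack. Of 32 genes that make, transfer or remodel this anchor 30 were tested, and 1 was called lower in each GOF line, beside 5.59% of all genes in Y641F and 6.48% in A677G. This was *PGAP4*, listed under its older symbol *TMEM246*, a Golgi transferase that adds a sugar side chain to the anchor. It had 32.0 ± 1.83 CPM in WT, 23.2 ± 1.97 in Y641F, 23.0 ± 1.19 in A677G and 29.7 ± 0.741 in H689A/F667I (SD, n = 3 each). Its log2 fold change was -0.46 in Y641F (edgeR adjusted p = 6.44e-06) and -0.48 in A677G (edgeR adjusted p = 3.77e-06). *PIGA*, which acts at the start of anchor synthesis, was at 48.9, 49.2 and 48.4 CPM in WT, Y641F and A677G. Between the GOF and LOF lines *PGAP4* alone was called by edgeR's quasi-likelihood test, beside 8.75% of all genes called lower and 3.81% higher. Limma voom called 2 genes of the list lower and 1 higher, among 2096 genes called in all. The transamidase subunit *PIGK* was at 129 to 134 CPM. The median over the 30 genes was 0.000952 in Y641F and 0.00499 in A677G on the log2 scale. Without *PGAP4*, all log2 fold changes of the list in Y641F and A677G against WT lay between -0.16 and 0.16.

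**Figure D4:**
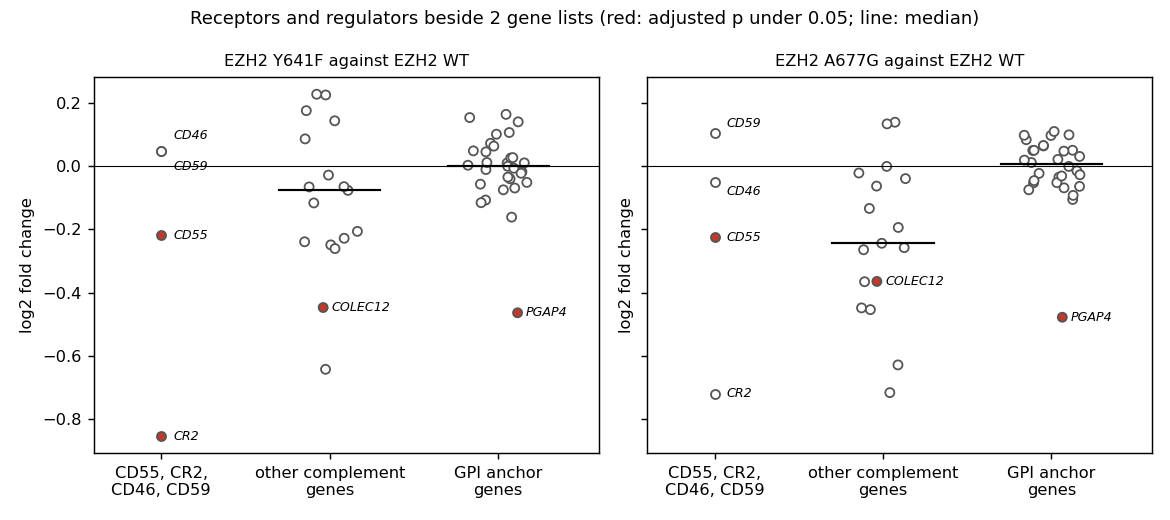
Log2 fold changes (y axis) in Y641F (left) and A677G (right) against WT of the 4 genes, 17 other complement genes and 30 GPI anchor genes (x axis), with lines for the medians of the 2 lists and red points for an adjusted p under 0.05. *COLEC12* and *PGAP4* were the called genes of the 2 lists in both lines.

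On B cells CR2 signals in a complex that includes CD81 and IFITM1, and no change was called at the genes of these partners by edgeR's quasi-likelihood or exact test, DESeq2 or limma voom. *CD81* was at 93.9 ± 4.50 CPM in WT and at 97.2 ± 1.29 and 96.8 ± 3.51 in Y641F and A677G (SD, n = 3 each). *IFITM1* was at 4.39 ± 0.341 CPM in WT, and between the GOF and LOF lines it differed by 0.38 on the log2 scale, with an unadjusted p under 0.05 (edgeR adjusted p = 0.0669).

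Neighbouring genes were described to see whether *CD55* and *CR2* moved alone in their region. Within 1 Mb of a start of the 3 clustered genes, 8 other genes were tested. Of these, 3 were called lower in Y641F (2 by the exact test or limma voom), beside 5.59% of all genes, and 4 in A677G, beside 6.48%. These were *RASSF5*, a RAS-binding adaptor, *PFKFB2*, a regulator of glycolysis, *PLXNA2*, a semaphorin receptor, and, in A677G alone, the deubiquitinase *YOD1*. *PLXNA2*, 922.9 kb beyond the *CD55* start, was lowest at -0.56 in Y641F (edgeR adjusted p = 9.59e-04) and -0.48 in A677G (edgeR adjusted p = 0.00416). *RASSF5* was at -0.33 and -0.30 and *PFKFB2* at -0.18 and -0.23 in the same order. *YOD1* was at -0.18 in A677G (edgeR adjusted p = 0.00252) and -0.12 in Y641F (edgeR adjusted p = 0.0716), which are not shown to differ (edgeR adjusted p = 0.820). Genes between them, *EIF2D*, *DYRK3* and *MAPKAPK2*, and *CD46* inside the cluster were not called in either line. The median of the 8 neighbours was -0.12 in Y641F, -0.17 in A677G and 0.02 in H689A/F667I. In the LOF line 0 of the 8 were called by edgeR, DESeq2, limma voom or the exact test, and 0 had an unadjusted p under 0.05.

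Around *CD59*, 15 genes were tested within 1 Mb, of which 2 were called lower in Y641F, beside 5.59% of all genes, and 3 in A677G, beside 6.48%. *KIAA1549L*, 360.4 kb from the *CD59* start, was at -1.03 in Y641F (edgeR adjusted p = 2.82e-05) and -0.82 in A677G (edgeR adjusted p = 4.84e-04). *PRRG4* was at -0.39 and -0.37 in the same order, and *ABTB2* was called in A677G at -0.27 (edgeR adjusted p = 0.0314). The nearest gene, *FBXO3*, 38.1 kb away, was at 0.02 in both, and the catalase gene *CAT* at 0.05 and -0.00106. Between the GOF and LOF lines 3 were called lower, *PRRG4*, *KIAA1549L* and *LMO2*, and 1 higher, *QSER1*, beside 8.75% and 3.81% of all genes.

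**Figure D5:**
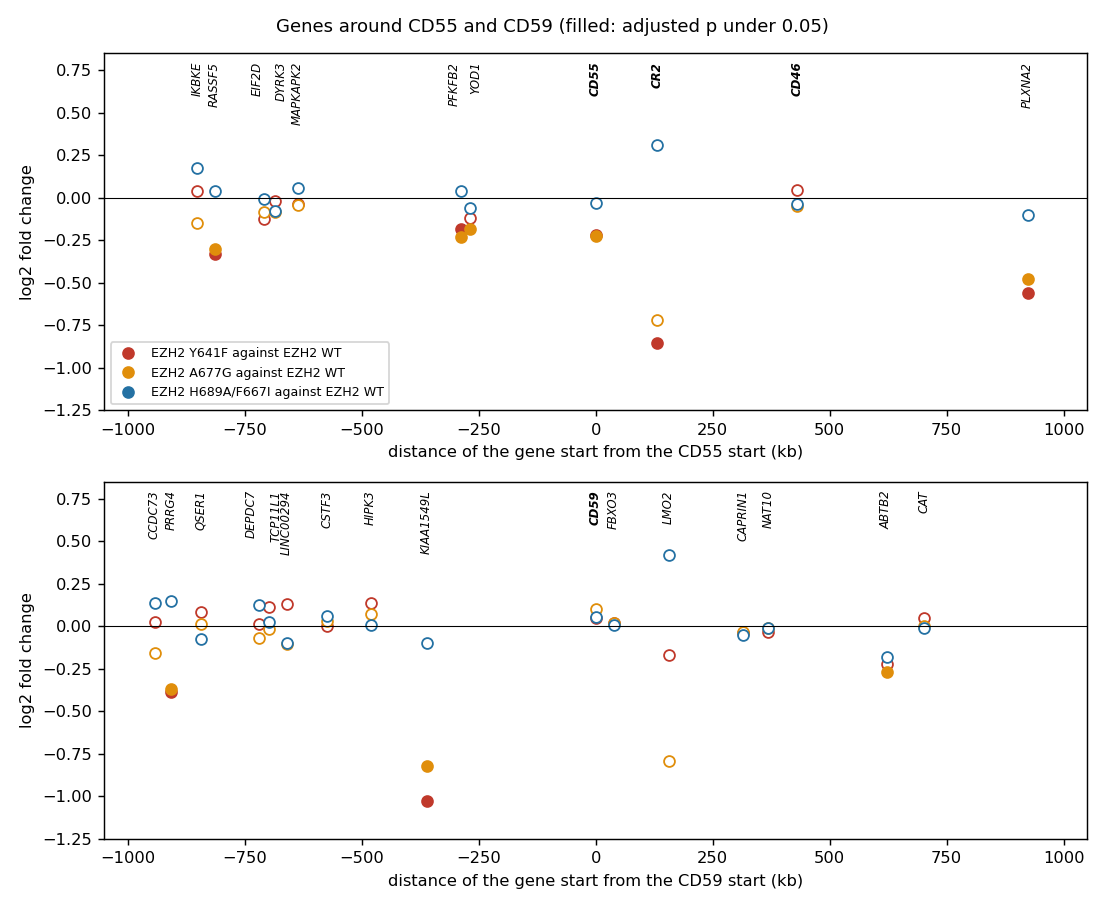
Log2 fold changes of each mutant against WT (y axis) by distance of a gene's start from that of *CD55* (top) or *CD59* (bottom) in kb (x axis), with filled points for an adjusted p under 0.05. In the top panel *RASSF5*, *PFKFB2*, *CD55* and *PLXNA2* are filled in both GOF lines, and no point of H689A/F667I is filled in either panel.

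The genes with the most similar patterns over the 12 libraries were found by the root mean square difference of centred log2 CPM among genes whose log2 CPM averaged 1 or more. For *CD55* these were *PODXL2*, *DDX26B* and *PFKP*, with differences of 0.0471, 0.0539 and 0.0547, where *CD55* itself varied by 0.118 around its mean and the median difference over 12039 genes was 0.150. *PODXL2*, which codes for a sialomucin, had 93.5, 80.7, 79.2 and 93.9 CPM in WT, Y641F, A677G and H689A/F667I. For *CR2* they were *FAM129A*, *GEM* and *DCLK1*, at 0.154, 0.174 and 0.184, against 0.509 for *CR2* around its own mean. *FAM129A* had 11.0, 6.20, 6.88 and 12.8 CPM in the same order of lines. The selection on the same libraries fixes the direction of these genes.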

How the data were processed

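Polyadenylated RNA from 4 HEK293T lines was sequenced in 3 libraries per line. Per the submitters' notes and the paper, reads were trimmed with Trim Galore 0.6.5, aligned to GRCh38 with STAR 2.7.9a and quantified with Salmon 1.2.0. The deposited table holds the authors' unnormalized counts for each gene symbol, and the step from transcript estimates to whole counts per symbol is not given in the sources used here. Of 14438 genes, 175 that no replicate of A677G, or none of H689A/F667I, detected were left out, and the other 14263 all passed filterByExpr.

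The main test was that of edgeR 4.0.16 under R 4.3.3 (TMM, quasi-likelihood test, all 12 samples, 1 coefficient per line). Standard errors are the absolute log2 fold change over the root of F, and 95% intervals use the test's degrees of freedom. DESeq2 1.42.0, limma 3.58.1 (voom with quality weights) and edgeR's exact test, which the study used, were alternatives, as were other scalings, filters, a GC correction and each library left out. CPM are TMM-normalized, with a prior count of 2 on the log2 scale. Of the symbols, 13272 matched GENCODE 44 directly and 810 by an older name. All 4 members were found in the RefSeq promoter table.

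Named genes were the members, called genes of fixed lists (otherwise at most the 3 highest) and the 3 nearest patterns of a called member. *CLU*, *LMO2* and *QSER1* fall under that rule, while *SERPING1*, *CFHR3*, *PIGA*, *EIF2D*, *DYRK3*, *MAPKAPK2*, *FBXO3* and *CAT* were named after their values were seen. The members and lists were chosen with earlier results of these data known. Replicates are separate libraries by label, and p-values measure only the spread between them. No pair of replicates agreed within sampling noise, with a chi-square per gene of 3.33 or more. The procedure was run on simulated counts drawn from the fitted model, with known changes in Y641F alone. Such a run cannot show that the model holds for these libraries. Results for 1 further gene of the fixed lists are not reported here.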

Additional observations from a re-analysis of the deposited data

Results flagged for a closer look

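For 2 of the 4 genes the change in the GOF lines differed from that in the LOF line by a test of the difference itself, that of the pooled GOF lines (Y641F, A677G) against the LOF line (H689A/F667I). At *CD55* the difference was -0.19 on the log2 scale (standard error 0.0484, edgeR adjusted p = 0.00515), with the 6 GOF libraries at 33.8 to 38.7 CPM and the 3 LOF libraries at 41.2 to 42.3. At *CR2* it was -1.10 (standard error 0.201, edgeR adjusted p = 1.29e-04), with GOF libraries at 0.946 to 1.43 CPM and LOF libraries at 2.14 to 2.70. At *CD46* and *CD59* the same difference was 0.03 and 0.02 and was not called (edgeR adjusted p = 0.673 and 0.784). Of all genes, 8.75% were called lower and 3.81% higher in this comparison. The study chose *CD55* and *CR2* as lowered in these GOF libraries, so their direction here is not independent evidence. Each line had 3 libraries, too few to judge a single library against its group. The separation of Y641F replicate 1 on the principal components is a description, without a test.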

How the results depend on the processing

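*CD55* kept its call in Y641F and A677G under all 13 settings that kept every library. Over the 12 fits that left one library out, it ranged from -0.25 to -0.18 in Y641F (10 calls) and from -0.27 to -0.18 in A677G (10 calls). *CR2* in Y641F was not called with limma voom (-0.83) or with the compared groups alone (-0.85), and ranged from -1.04 to -0.68 without a library (9 calls). In A677G *CR2* was called with the exact test (-0.72), DESeq2 (-0.72) and limma voom (-0.69), and ranged from -0.91 to -0.54 without a library (2 calls). *CD59* in A677G was called with limma voom (0.11) and with the GC trend removed, without (0.13) and with the replicate block (0.13). *CD46* was not called in any fit. No call of *CD55*, *CR2*, *CD46* or *CD59* reversed, and the causes of lost and gained calls were not tested.

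Replicate numbers did not pair the samples: 0 of 18 same-numbered pairs had a correlation of deviations over 0.1 (-0.0557 to 0.0501), and 2 of 12 libraries correlated best with their own number. With the replicate block 1108 genes were called in Y641F, 1238 in A677G and 40 in H689A/F667I, 16 between the GOF lines and 1808 between GOF and LOF lines, and 0 calls of the 4 genes changed.

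Counts of called genes moved as follows. Against WT, A677G had 1219 called genes and 1849 with the exact test. H689A/F667I had 43, against 146 with the exact test, 99 with limma voom, 169 with genes at 0 in a line kept and 86 with the compared groups alone. Y641F against A677G had 12, against 19 with DESeq2 and 178 with genes at 0 kept. Without one library, the counts ran from 703 (WT replicate 2) to 1232 for Y641F, where all libraries gave 1095, and from 8 to 57 (Y641F replicate 2; 21 without its replicate 3) between the GOF lines. For H689A/F667I they ran from 11 to 65: 11 and 19 without its replicates 1 and 2, 12, 17 and 25 without WT replicates 1, 2 and 3, and 65 without Y641F replicate 1. The share of called genes that were lower was 72.8% in Y641F, 75.8% in A677G and 69.6% between GOF and LOF lines, and 62.0%, 59.0% and 51.4% with the GC trend removed. Between GOF and LOF lines, 2 of 30 GPI anchor genes were called by library totals, which called 1716 genes in all, and 1 by TMM. Within 2 Mb in place of 1 Mb, 7 of 20 neighbours of the cluster were called between GOF and LOF lines, 6 lower and 1 higher. Within 1 Mb these were 3 of 8, all lower, beside 8.75% of all genes called lower and 3.81% higher. Of the neighbours of *CD59*, 4 of 25 were called lower in Y641F within 2 Mb and 2 of 15 within 1 Mb, beside 5.59% of all genes. The wider windows hold more genes, and whether the shares called differ was not tested. Lengths by the longest transcript raised CPM per kilobase in 15 of 16 values by more than 1 SD. Depth limits *CR2* most, with 40 to 106 counts per library against 1233 to 4134 for *CD55*, *CD46* and *CD59*.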
